A study of Mus musculus with 4 samples.

Results

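The 31 genes described here make, move, store or sense cholesterol, and they were taken by symbol from the 55385 genes of the matrix. All 31 symbols matched a gene. The rule uses no measured value, but the list was drawn up with earlier results of these data known. Spleen cells of wild-type (WT) C57BL6 mice, kept in steady state, were profiled by CITE-seq, in which each cell yields RNA counts together with counts of DNA-tagged surface antibodies. Per the labels, DCs from 2 mice were enriched by negative selection and stained with 160 barcoded antibodies and 9 isotype controls. A mix of 50000 to 60000 type 1 conventional dendritic cells (cDC1), 10000 type 2 cells (cDC2) and 10000 random live cells was then loaded for 10x 3′ libraries. The DC gates were CD64-negative, CD11c-positive and MHCII-positive, with XCR1 and CD172a in opposite directions for the 2 lineages. The labels give RNA replicates 1 and 2 but do not say that each came from its own mouse. The p-values rest on how differences between classes vary between 2 libraries, pooled over all classes, and this spread may be technical.

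Cells make cholesterol from acetyl-CoA in a long chain of enzymes that passes through mevalonate, isoprenoids, squalene and lanosterol. Sterol supply is sensed in the endoplasmic reticulum, where SCAP escorts the transcription factor SREBP2 (gene Srebf2) to the Golgi when sterols are low and INSIG proteins hold it back when they are high. SREBP2 then activates most genes of the chain, while cholesterol taken up from lipoproteins and dead cells leaves lysosomes through NPC2 and NPC1. Dendritic cells that mature without infection switch on the homing receptor CCR7 and the actin bundler fascin (Fscn1), and cDC1 are known for engulfing apoptotic cells, a source of cholesterol.

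Classes were gated on antibody and RNA UMIs, where a UMI is a counted molecule. cDC1 had at least 3 XCR1 and at most 2 CD172a antibody UMIs. Within this gate, intermediate cells had at least 2 Ccr7 and at most 1 Fscn1 UMIs, and late cells at least 5 Ccr7 and at least 2 Fscn1 UMIs. Cells without Ccr7 were split into cycling cells, Ccr2-high CD8a-low cells and the remaining immature cells. Cycling cells were taken out at this step only, so the intermediate and late classes may hold some. Their part in the results was not tested. The cells numbered 3774 and 5963 immature, 179 and 236 intermediate, 103 and 125 late, 1029 and 1339 cycling, and 68 and 90 Ccr2-high CD8a-low in libraries 1 and 2. The other classes were mature cDC2 (58 and 54 cells), immature cDC2 (1126 and 1185), T cells (756 and 642), NK cells (267 and 371) and B cells (150 and 164). Levels are given in CPM, the share of a gene in all RNA UMIs of a class in a library, scaled to counts on a common total, and paired values are library 1 and then library 2. CPM are relative to all RNA of the class, so fewer molecules of a gene and more of other RNA cannot be told apart. Fold changes come from the fit, which also divides by a normalization factor, so they can differ from CPM ratios. The factors were 0.80 and 0.87 for late cDC1 and 0.97 and 0.98 for immature cDC1. They place late values higher over immature ones than the CPM do.

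Markers fitted the labels of the DC classes. The summed level of 8 cDC1 markers was 1961 and 2708 CPM in late cDC1 and 4528 and 5020 CPM in immature cDC1, against 571 and 607 CPM in immature cDC2. The 10 mature DC markers summed to 8439 and 7911 CPM in late cDC1, against 1165 and 1221 CPM in immature cDC1. They summed to 9169 and 7118 CPM in mature cDC2, against 2210 and 1982 CPM in immature cDC2. Plasma cell RNA filled part of the B cell class, where Jchain stood at 21816 and 16175 CPM. The libraries shared 61 barcode sequences, 41 of them among the kept cells. Kept cells had a median of 6942 and 6885 RNA UMIs.

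Promoter windows from RefSeq (build GRCm38.p6, 250 bases before to 50 after the start site) were found for 25 members. They are shown for 4 genes of the chain that rose in late cDC1 and 2 that fell, to let the letters before the start sites be compared. Each line runs 5′ to 3′ on the gene's strand from 170 to 9 bases before the start, and capitals mark whole matches on either strand to TCACNCCAC, a sterol response element, or to CCAAT, the box bound by NF-Y (ATTGG where it lies on the other strand). The positions are chr13:8885436-8885597 (+) for Idi1, chr13:119690181-119690342 (+) for Hmgcs1, chr9:42264309-42264470 (-) for Sc5d, chr1:169969214-169969375 (-) for Hsd17b7, chr1:181842410-181842571 (-) for Lbr and chrX:8193521-8193682 (-) for Ebp.
Idi1: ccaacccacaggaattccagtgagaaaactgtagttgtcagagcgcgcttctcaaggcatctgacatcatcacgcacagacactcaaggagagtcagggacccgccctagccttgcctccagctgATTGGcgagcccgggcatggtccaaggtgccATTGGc
Hmgcs1: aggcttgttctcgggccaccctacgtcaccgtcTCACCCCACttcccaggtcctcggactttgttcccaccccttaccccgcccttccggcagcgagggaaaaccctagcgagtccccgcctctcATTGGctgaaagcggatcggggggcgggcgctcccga
Sc5d: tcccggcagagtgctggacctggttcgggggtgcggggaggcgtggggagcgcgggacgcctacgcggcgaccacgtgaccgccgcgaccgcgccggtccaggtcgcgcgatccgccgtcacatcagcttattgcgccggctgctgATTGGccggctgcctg
Hsd17b7: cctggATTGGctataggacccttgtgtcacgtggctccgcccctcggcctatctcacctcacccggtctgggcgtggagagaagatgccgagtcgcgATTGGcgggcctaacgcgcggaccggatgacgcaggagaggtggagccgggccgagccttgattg
Lbr: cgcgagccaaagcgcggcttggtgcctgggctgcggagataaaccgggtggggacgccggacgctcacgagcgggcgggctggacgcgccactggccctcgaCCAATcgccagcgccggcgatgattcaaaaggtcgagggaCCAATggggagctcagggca
Ebp: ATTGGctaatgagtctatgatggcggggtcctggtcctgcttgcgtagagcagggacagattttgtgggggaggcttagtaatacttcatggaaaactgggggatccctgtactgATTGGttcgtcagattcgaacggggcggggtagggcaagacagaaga

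CCAAT was present in a 300-base window of 23 of the 25 members (92%), against 42.8% of the 7926 tested genes that had a window and 41.1% of all 27025 genes. A gene can have several windows, and by window CCAAT was present in 74.2% of 31 member windows, against 37.4% of all windows. TCACNCCAC was present in Hmgcs1 alone among the 25 members (4%), against 1.25% of tested genes and 1.44% of all genes. Whole matches alone were counted, so a sterol response element with other letters would be missed. The GC box GGGCGG was present in 88% of members, against 69.6% of tested and 38.2% of all genes. The E box CACGTG was present in 24% of members, against 12.1% and 8.09%. The capitals do not overlap each other in the printed lines. Genes that rose (Idi1, Hmgcs1, Sc5d, Hsd17b7) and genes that fell (Lbr, Ebp) both held CCAAT. A match is a description of the letters and not of binding. The motifs and the 6 genes were chosen after the expression values were seen.

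Late cDC1 held more RNA for most enzymes of the early and middle chain than immature cDC1. The 20 enzymes together reached 863 and 766 CPM in late cDC1, against 445 and 450 CPM in immature cDC1. Of the 29 members that passed the filter on low counts, 16 rose and 5 fell, while 24.6% of all 10260 tested genes were called higher and 21.7% lower. The median log2 fold change of the 29 members was 0.85, beside -0.06 over all tested genes. Lss, the lanosterol synthase, and Tm7sf2, a sterol reductase, did not pass the filter. Their levels were 2.78 and 6.99 CPM (Lss) and 2.78 and 5.82 CPM (Tm7sf2) in late cDC1, against 2.90 and 2.33 CPM (Lss) and 1.44 and 0.907 CPM (Tm7sf2) in immature cDC1.

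**Figure D1:**
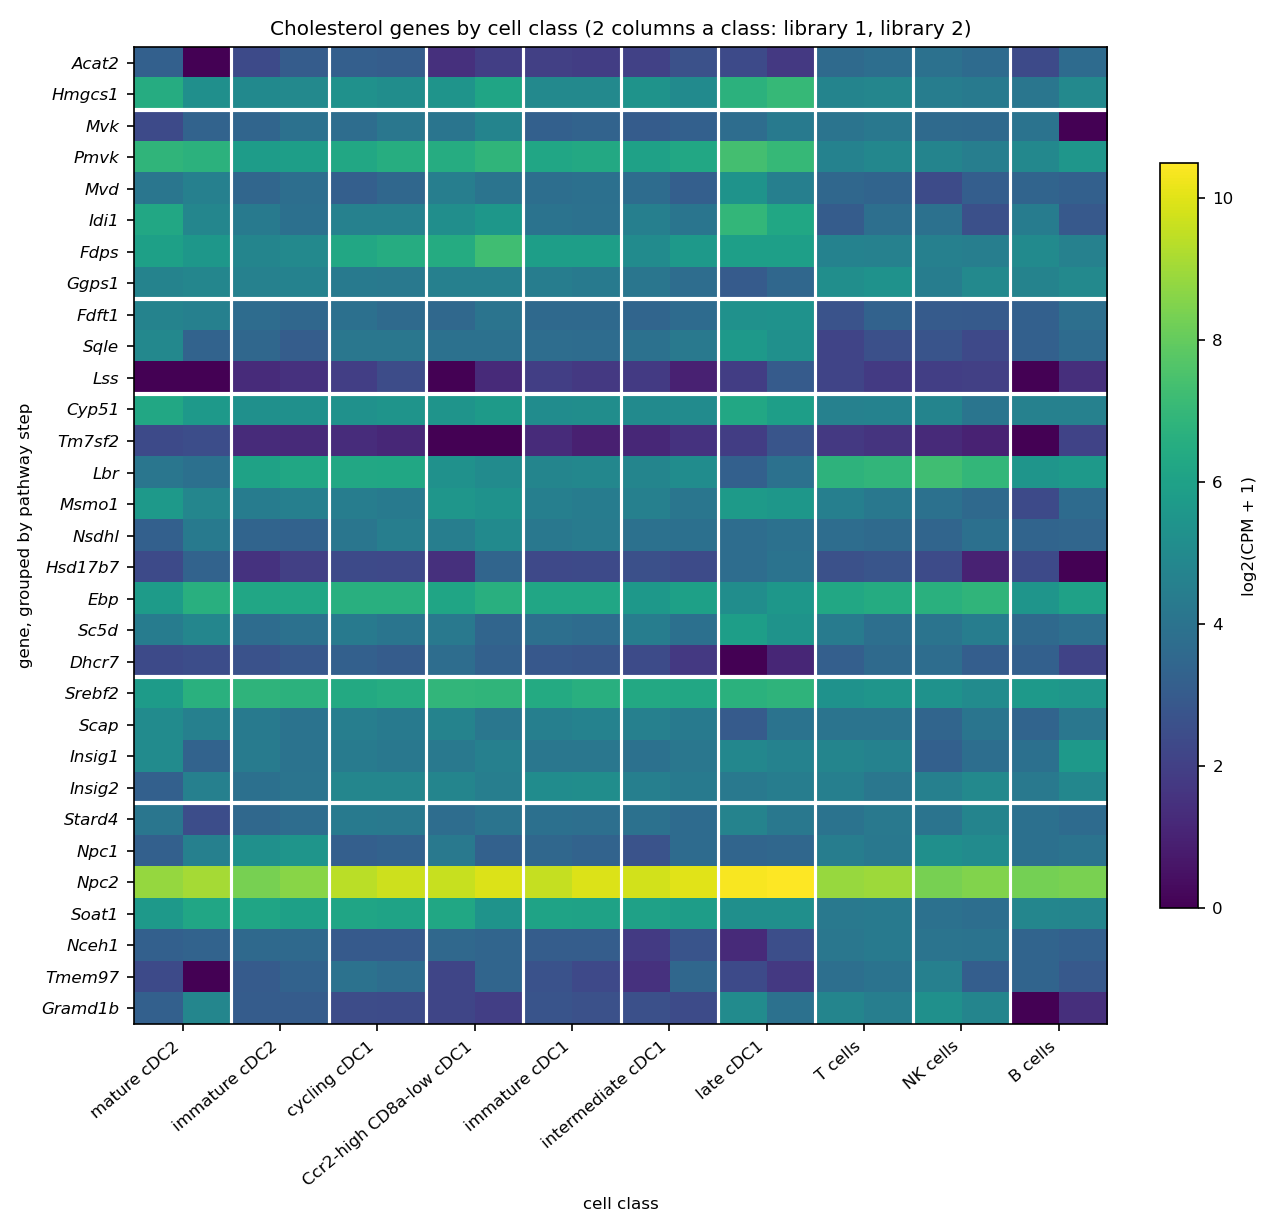
Level of each of the 31 genes as log2(CPM + 1) in 10 cell classes, with library 1 left of library 2 in each class and white lines between pathway steps. The late cDC1 columns are brighter than the immature cDC1 columns for Hmgcs1, Idi1, Fdft1, Sqle and Sc5d and darker for Lbr and Dhcr7; colours serve to compare classes within a gene.

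The entry to the chain differed between its members. Hmgcs1, which makes HMG-CoA and whose promoter line holds the TCACNCCAC match, stood at 106 and 128 CPM in late cDC1, against 29.9 and 29.7 CPM in immature cDC1. The classes did not overlap, and the log2 fold change was 2.20 (SE 0.16, adjusted p = 9.57e-12). Here and below, a lack of overlap between 2 libraries a class is a weak description. The share of all tested genes without overlap was not counted. Acat2, the cytosolic thiolase that joins acetyl-CoA units, stood at 4.17 and 2.33 CPM in late cDC1, against 3.00 and 2.76 CPM in immature cDC1. Its values overlapped and its 95% interval ran from -1.15 to 1.87 on the log2 scale. Reads of Acat2 may be shared with its close mouse copy Acat3, so its level is uncertain.

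In the mevalonate segment 4 of 6 enzymes rose. Idi1, the isomerase that makes dimethylallyl diphosphate, stood at 122 and 74.5 CPM in late cDC1, against 15.1 and 13.9 CPM in immature cDC1. This was the highest log2 fold change among the 29 members tested in this comparison, at 2.96 (SE 0.23, adjusted p = 1.48e-11). Mvd, which decarboxylates mevalonate diphosphate, stood at 40.4 and 22.1 CPM in late cDC1, against 12.8 and 13.5 CPM in immature cDC1 (log2 1.43, SE 0.28, adjusted p = 0.000144).

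The mevalonate kinases also rose. Pmvk stood at 161 and 128 CPM in late cDC1, against 72.8 and 80.3 CPM in immature cDC1 (log2 1.13, SE 0.14). Mvk stood at 12.5 and 18.6 CPM in late cDC1, against 8.31 and 9.09 CPM in immature cDC1 (log2 1.07, SE 0.41, adjusted p = 0.0330), and rests on 9 and 16 late UMIs. None of the values of Idi1, Mvd, Pmvk and Mvk overlapped between these classes.

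The branch point and the isoprenoid side differed from these kinases. Ggps1, which makes the geranylgeranyl anchor of small GTPases and so leads away from sterols, stood at 6.96 and 10.5 CPM in late cDC1, against 20.8 and 18.8 CPM in immature cDC1. It fell by 0.93 on the log2 scale (SE 0.33, adjusted p = 0.0235). Fdps, which makes farnesyl diphosphate at the branch point, stood at 59.8 and 59.4 CPM in late cDC1, against 58.4 and 58.4 CPM in immature cDC1, with an interval from -0.16 to 0.64.

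The steps to squalene epoxide rose too. Fdft1, the squalene synthase that commits farnesyl diphosphate to sterols, stood at 39.0 and 39.6 CPM in late cDC1, against 11.1 and 11.0 CPM in immature cDC1 (log2 2.05, SE 0.23). Sqle, the squalene epoxidase, stood at 48.7 and 37.3 CPM in late cDC1, against 12.4 and 11.96 CPM in immature cDC1 (log2 2.02, SE 0.23). Both adjusted p-values were small, 2.57e-08 for Fdft1 and 3.27e-08 for Sqle, and neither gene overlapped between the classes.

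Past lanosterol the enzymes split, with 4 higher and 3 lower of 8 tested. Sc5d, the sterol C5 desaturase, stood at 58.4 and 40.8 CPM in late cDC1, against 13.1 and 12.02 CPM in immature cDC1 (log2 2.19, SE 0.23, adjusted p = 7.88e-09). Msmo1, a C4 methyl oxidase, stood at 51.5 and 45.4 CPM in late cDC1, against 22.0 and 20.01 CPM in immature cDC1 (log2 1.42, SE 0.20). Cyp51, the lanosterol demethylase, stood at 77.9 and 57.1 CPM in late cDC1, against 33.2 and 34.3 CPM in immature cDC1 (log2 1.20, SE 0.17). All 3 genes were higher in both late libraries than in either immature library.

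Hsd17b7, a sterol ketone reductase, stood at 12.5 and 15.1 CPM in late cDC1, against 3.97 and 4.17 CPM in immature cDC1 (log2 1.99, SE 0.43). It rests on 9 and 13 late UMIs. Late cDC1 was the class in which both libraries exceeded the 7.63 CPM that the filter on low counts needed, so its entry into the test leaned on the class where it is high.

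Lbr, Ebp and Dhcr7 fell in this last segment. Lbr, which has sterol C14 reductase activity and also tethers heterochromatin to the nuclear envelope, stood at 8.35 and 14.0 CPM in late cDC1, against 26.1 and 27.9 CPM in immature cDC1. It fell by 1.03 on the log2 scale (SE 0.29, adjusted p = 0.00434). Ebp, the sterol isomerase, stood at 34.8 and 45.4 CPM in late cDC1, against 73.8 and 73.5 CPM in immature cDC1, and fell by 0.65 (SE 0.18, adjusted p = 0.00424).

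Dhcr7, the reductase that ends the chain at cholesterol, had 0 and 1 UMIs in late cDC1, against 207 and 280 UMIs in immature cDC1. As a share of RNA UMIs this was 0.102 times the immature level, with a 95% counting interval from 0.00258 to 0.571. Nsdhl, the C4 decarboxylase, stood at 12.5 and 14.0 CPM in late cDC1, against 17.4 and 19.4 CPM in immature cDC1, and its interval ran from -0.87 to 0.35.

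**Figure D2:**
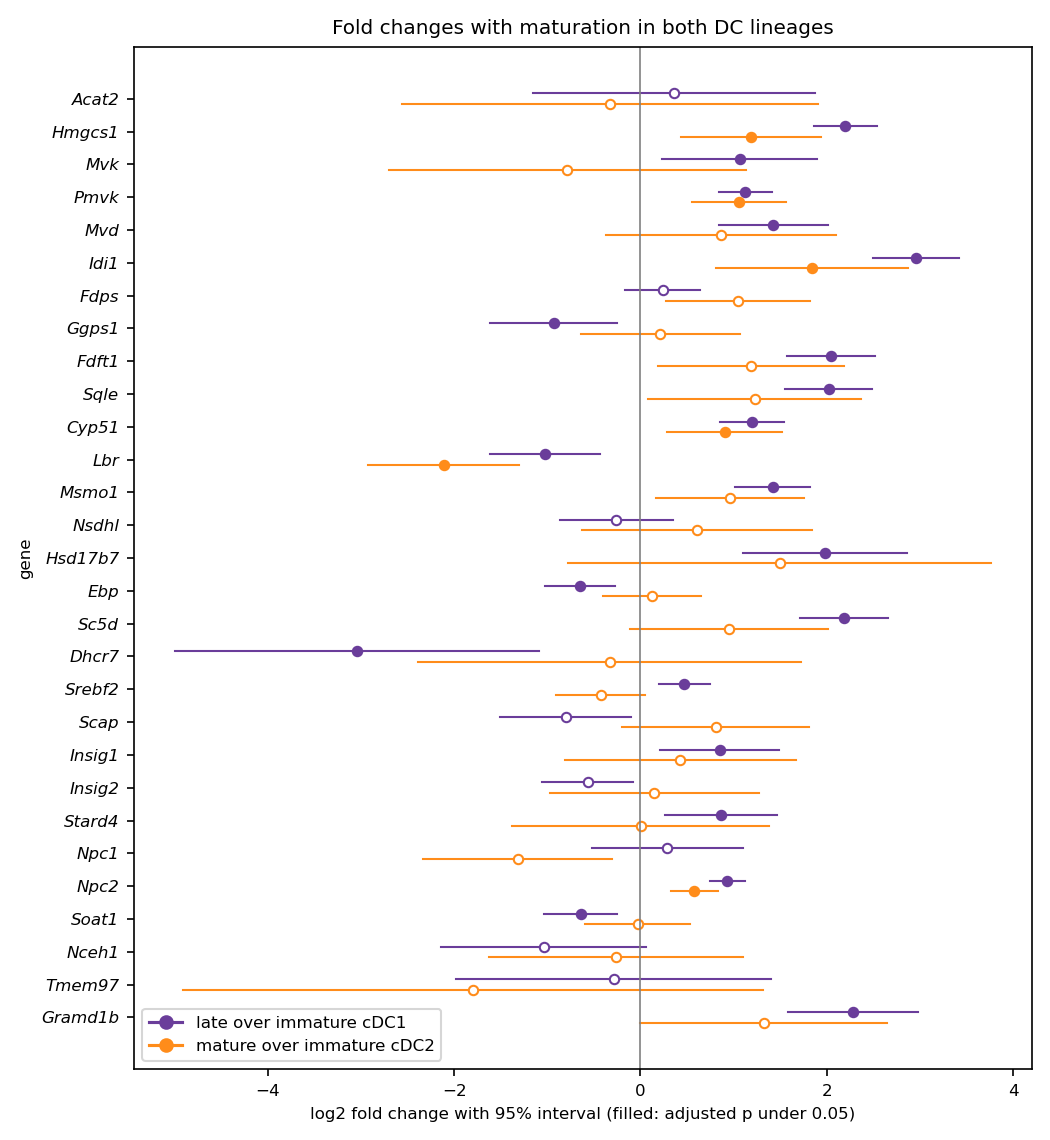
Log2 fold change with its 95% interval for each of the 29 tested genes, for late over immature cDC1 (purple) and mature over immature cDC2 (orange); filled points passed the adjusted threshold of 0.05. Idi1 lies at 2.96 in cDC1 and 1.85 in cDC2, Lbr lies below 0 in both lineages, and the cDC2 intervals are wider.

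Of the 4 regulators 2 rose. Srebf2 stood at 103 and 113 CPM in late cDC1, against 85.0 and 96.4 CPM in immature cDC1 (log2 0.47, SE 0.13, adjusted p = 0.00524). Its CPM differed by less than this fold change, which also carries the normalization of the fit. Insig1, itself a known SREBP target, stood at 27.8 and 24.5 CPM in late cDC1, against 16.9 and 16.6 CPM in immature cDC1 (log2 0.85, SE 0.31, adjusted p = 0.0262). The late and immature libraries did not overlap for either gene.

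The partners of SREBP2 that did not pass lay on the other side of 0. Scap stood at 6.96 and 15.1 CPM in late cDC1, against 22.0 and 24.1 CPM in immature cDC1 (log2 -0.80, adjusted p = 0.0558). Insig2 stood at 18.1 and 21.0 CPM in late cDC1, against 33.6 and 34.0 CPM in immature cDC1 (log2 -0.57, adjusted p = 0.0536).

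Among transport and storage genes 3 of 7 rose. Npc2, the soluble lysosomal protein that binds free cholesterol, stood at 1355 and 1437 CPM in late cDC1, against 751 and 967 CPM in immature cDC1 (log2 0.93, SE 0.09, adjusted p = 2.33e-09). Gramd1b, which moves cholesterol between the plasma membrane and the endoplasmic reticulum, stood at 32.0 and 14.0 CPM in late cDC1, against 5.65 and 5.01 CPM in immature cDC1 (log2 2.28, SE 0.34). Both late libraries lay above the immature ones, library 1 the further, on 23 and 12 UMIs.

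Stard4, a cytosolic sterol carrier, stood at 25.0 and 17.5 CPM in late cDC1, against 13.8 and 13.0 CPM in immature cDC1 (log2 0.86, SE 0.29, adjusted p = 0.0176). Soat1, which esterifies cholesterol for storage in droplets, stood at 36.2 and 36.1 CPM in late cDC1, against 66.1 and 65.3 CPM in immature cDC1, and fell by 0.64 (SE 0.19, adjusted p = 0.00688). Npc1, the membrane partner of NPC2, stood at 9.74 and 10.5 CPM in late cDC1, against 10.2 and 9.13 CPM in immature cDC1, with an interval from -0.53 to 1.10. Neither Nceh1, which hydrolyses cholesterol esters (interval -2.14 to 0.06), nor Tmem97, the sigma-2 receptor that binds NPC1 (interval -1.98 to 1.41), passed.

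Calls in this comparison numbered 13 (10 higher, 3 lower) with a narrower cDC1 antibody gate of at least 5 XCR1 and at most 1 CD172a UMIs, and 12 (11 higher, 1 lower) without library 1 in the compared classes. Hmgcs1, Idi1, Pmvk, Fdft1, Sqle, Cyp51, Msmo1, Sc5d and Npc2 passed in each alternative fit that gave a test. The other 12 called members lost their call in at least 1 alternative, with Mvd at log2 0.53 (adjusted p = 0.402) under the narrower gate and Lbr at -0.39 (adjusted p = 0.135) with doublets kept. Mvk, Mvd, Ggps1, Lbr, Ebp, Dhcr7, Srebf2, Insig1 and Stard4 did not pass without library 1 in the compared classes. Late cells were shallower, with median UMIs of 6514 and 6199 against 8701 and 7778 in immature cells, and within cells of 4000 to 12000 UMIs the count was again 21 (16 higher, 5 lower). The 7 macrophage markers summed to 214 and 198 CPM in late cDC1, against 44.3 and 50.3 CPM in immature cDC1. Vcam1 at 135 and 140 CPM and Spic at 69.6 and 47.8 CPM made up most of that late sum, while C1qa and C1qb had 1 UMI each and C1qc 0. The 8 cDC2 markers summed to 73.7 and 78.0 CPM in late cDC1, against 12.7 and 13.5 CPM in immature cDC1, and the NK markers to 19.5 and 106 CPM against 14.5 and 19.7 CPM. The part of these markers in the result was not tested.

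The share of cells with a UMI gave the same order. After thinning each cell to 3000 UMIs, Idi1 was seen in 28.0% (exact 95% interval 19.5 to 37.9) and 19.5% (12.6 to 28.0) of late cDC1, against 4.33% (3.69 to 5.06) and 3.89% (3.39 to 4.43) of immature cDC1. Unthinned shares were 40.8% and 30.4% in late cDC1, against 10.5% and 8.97% in immature cDC1. T cells, with median UMIs of 3006 and 2811, gave thinned Idi1 shares of 1.05% and 3.89%.

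Hmgcs1 was seen after thinning in 28.0% (19.5 to 37.9) and 30.1% (21.8 to 39.4) of late cDC1, against 7.73% (6.87 to 8.66) and 8.05% (7.34 to 8.80) of immature cDC1. T cells gave 7.09% and 9.54%, a range that includes both immature shares. No class measured here is known to lack these enzymes, so the T cell share bounds but does not isolate free RNA. Intervals cover counting error only, and thinning left out 3 and 12 late cells, 244 and 433 immature cells and 375 and 359 T cells.

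Cells with Ccr7 but little Fscn1 did not share the rise. The 20 enzymes summed to 445 and 450 CPM in immature, 397 and 418 CPM in intermediate and 863 and 766 CPM in late cDC1. No member rose in intermediate over immature cDC1 and 3 fell, while 16.8% of tested genes were called higher and 10.6% lower. The median of the 29 members was -0.08, beside 0.01 over all genes.

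The 3 genes that fell were Insig2, Fdps and Ebp. Insig2 stood at 22.0 and 18.7 CPM in intermediate cDC1, against 33.6 and 34.0 CPM in immature cDC1 (log2 -0.71, SE 0.16, adjusted p = 0.000911). Fdps stood at 32.4 and 50.4 CPM in intermediate cDC1, against 58.4 and 58.4 CPM in immature cDC1 (log2 -0.44, SE 0.16, adjusted p = 0.0393). Ebp stood at 47.7 and 61.6 CPM in intermediate cDC1, against 73.8 and 73.5 CPM in immature cDC1 (log2 -0.38, SE 0.13, adjusted p = 0.0248). Levels of Insig2, Fdps and other members outside the late calls are given where they passed in some comparison, a choice made after their values were seen.

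The enzymes that later rose were near their immature level in intermediate cells. Idi1 stood at 22.0 and 15.9 CPM in intermediate cDC1, against 15.1 and 13.9 CPM in immature cDC1 (log2 0.40, interval -0.13 to 0.94). Hmgcs1 stood at 41.0 and 31.3 CPM in intermediate cDC1, against 29.9 and 29.7 CPM in immature cDC1 (interval -0.04 to 0.63). The intermediate count was 7 (3 higher, 4 lower) in cells of 4000 to 12000 UMIs, and 1 without library 2 in the compared classes or without the library term. RNA of several other cell types moved with this class. The 4 erythroid markers summed to 1013 and 475 CPM in intermediate cDC1, against 146 and 259 CPM in immature cDC1. The 6 T cell markers summed to 69.7 and 168 CPM against 7.59 and 6.65 CPM, the 6 NK markers to 31.8 and 92.8 CPM against 14.5 and 19.7 CPM, and the 7 macrophage markers to 108 and 133 CPM against 44.3 and 50.3 CPM. Their part in the result was not tested, except that without cells holding at least 5 UMIs of hemoglobin, S100a8/S100a9 or Jchain RNA the count was 3 lower as before.

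Set against intermediate cells, late cells had 14 members higher and 1 lower, against 16.9% of tested genes higher and 14.5% lower. Idi1 (log2 2.55, SE 0.28), Gramd1b (2.47, SE 0.44), Fdft1 (2.03, SE 0.28) and Hmgcs1 (1.91, SE 0.20) rose, and Lbr fell by 1.23 (SE 0.31, adjusted p = 0.00321). Both classes may hold cycling cells, a class in which Lbr stood at 76.4 and 76.0 CPM, and their part in this fall was not tested. Fdps also rose here (log2 0.68, SE 0.23, adjusted p = 0.0267), its intermediate level having been below the immature one. Mvk, Insig1 and Stard4 rose over immature cells but had adjusted p-values of 0.0706, 0.0640 and 0.0520 over intermediate cells. The comparisons share classes, so they are not independent of each other. With the narrower antibody gate the count was 7, all higher.

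**Figure D3:**
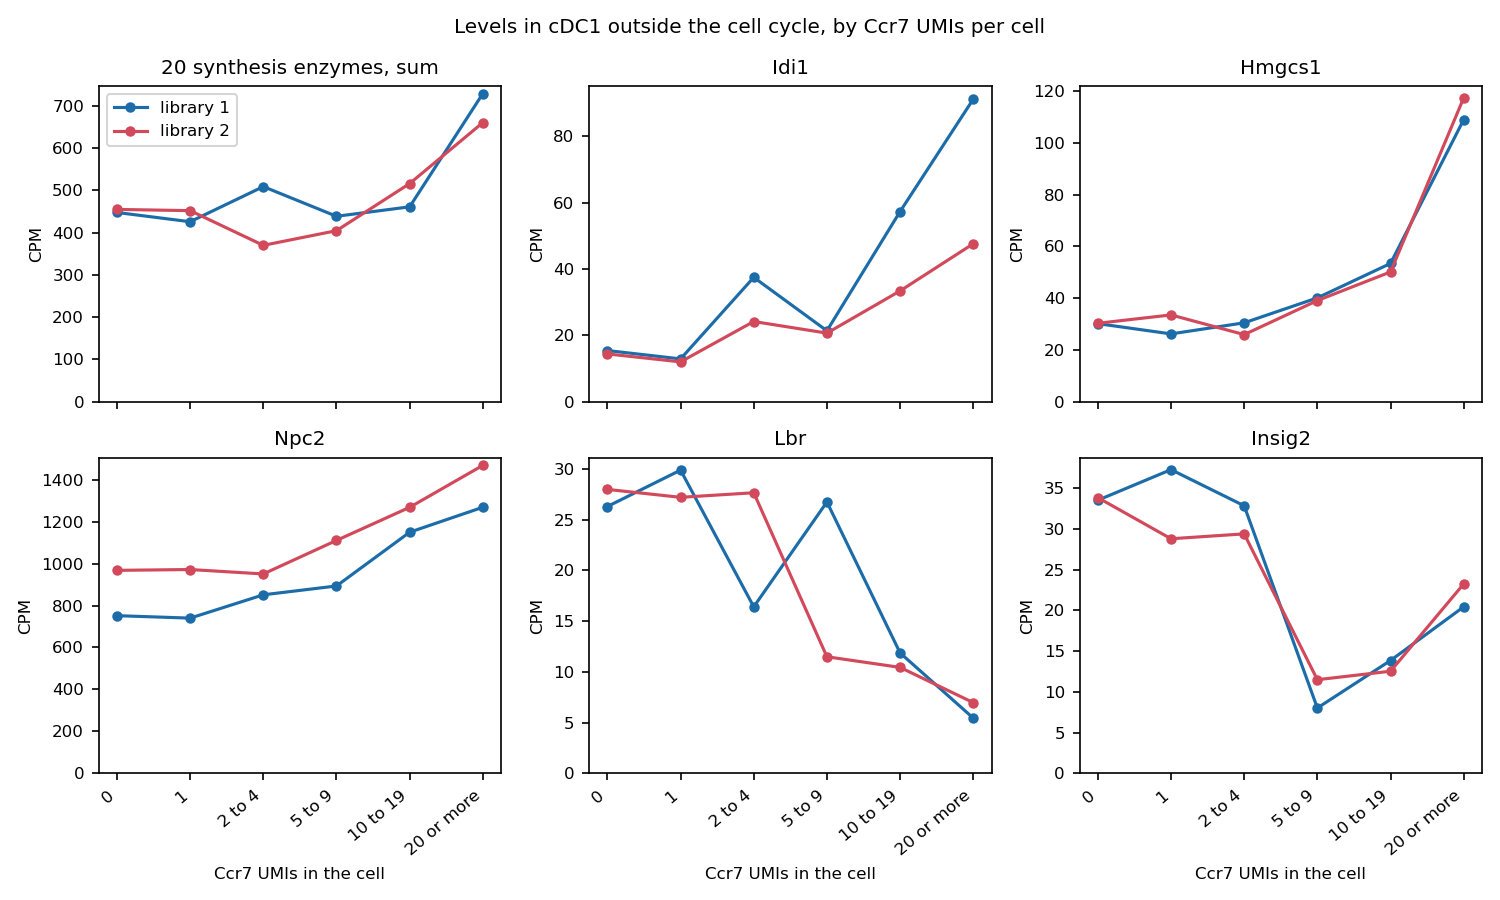
CPM in cDC1 outside the cell cycle, binned by Ccr7 UMIs per cell, in library 1 (blue) and library 2 (red). The enzyme sum stays between 370 and 516 CPM up to 19 Ccr7 UMIs and reaches 729 and 660 CPM at 20 or more. Lbr is lowest at 20 or more and Insig2 at 5 to 9, where Insig2 rests on few UMIs.

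A finer split of cDC1 outside the cell cycle by Ccr7 UMIs, chosen after the data were seen, placed these changes along one axis. The enzyme sum was 448 and 455 CPM at 0 Ccr7 UMIs, 426 and 452 CPM at 1, and 509 and 370 CPM at 2 to 4. It was 439 and 405 CPM at 5 to 9, 461 and 516 CPM at 10 to 19, and 729 and 660 CPM at 20 or more. The sum thus stood apart in both libraries only in the highest bin, which held 99 and 112 cells.

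Single genes followed different courses. Hmgcs1 stood at 30.2 and 30.3 CPM at 0 Ccr7 UMIs, 40.1 and 39.1 CPM at 5 to 9, 53.4 and 50.1 CPM at 10 to 19 and 109 and 117 CPM at 20 or more. Npc2 stood at 752 and 968 CPM at 0, 893 and 1110 CPM at 5 to 9 and 1268 and 1468 CPM at 20 or more. Insig2 stood at 33.5 and 33.8 CPM at 0, 8.02 and 11.5 CPM at 5 to 9, 13.8 and 12.5 CPM at 10 to 19 and 20.4 and 23.2 CPM at 20 or more. Its middle bins rest on few UMIs, so which of them was lowest is not settled. No test was run over the bins, and the bin of 5 to 9 held 41 and 63 cells.

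In cycling over immature cDC1 the calls went both ways. Of the 29 members 10 rose and 7 fell, while 22.0% of tested genes were called higher and 25.3% lower, and the median of the members was 0.02 beside -0.05 over all genes. Lbr stood at 76.4 and 76.0 CPM in cycling cDC1, against 26.1 and 27.9 CPM in immature cDC1 (log2 1.37, SE 0.09, adjusted p = 9.63e-13). Tmem97 stood at 14.6 and 12.6 CPM in cycling cDC1, against 5.25 and 3.93 CPM in immature cDC1 (log2 1.45, SE 0.18). Acat2 stood at 8.005 and 7.42 CPM in cycling cDC1, against 3.00 and 2.76 CPM in immature cDC1 (log2 1.29, SE 0.18).

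Lbr and Ebp, which fell in late cDC1, were both higher in cycling cells. Ebp stood at 97.9 and 97.9 CPM in cycling cDC1, against 73.8 and 73.5 CPM in immature cDC1 (log2 0.28, SE 0.09, adjusted p = 0.0125). Mvk (log2 0.61), Idi1 (0.56), Fdps (0.39), Sqle (0.34), Stard4 (0.33) and Sc5d (0.33) rose as well. Mvd (log2 -0.62), Insig2 (-0.45), Scap (-0.36), Npc2 (-0.32), Msmo1 (-0.23), Srebf2 (-0.23) and Ggps1 (-0.21) fell.

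Cycling cells were deeper, with median UMIs of 12381 and 11329, and held more RNA of other cells. Their 4 neutrophil markers summed to 308 and 319 CPM, against 33.2 and 27.1 CPM in immature cDC1, and their erythroid markers to 648 and 710 CPM, against 146 and 259 CPM. Without cells holding such RNA the count was 16 (7 higher, 9 lower). It was 10 with DESeq2, 8 without library 1 and 5 without library 2 in the compared classes.

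Ccr2-high CD8a-low cDC1, the small class of Ccr7-negative cells with the Ccr2 chemokine receptor, had 4 members higher and none lower. Over all tested genes 1.37% were called higher and 2.50% lower. Fdps stood at 86.5 and 154 CPM in Ccr2-high CD8a-low cDC1, against 58.4 and 58.4 CPM in immature cDC1 (log2 0.98, SE 0.17, adjusted p = 0.000496). Idi1 stood at 35.3 and 46.5 CPM in Ccr2-high CD8a-low cDC1, against 15.1 and 13.9 CPM in immature cDC1 (log2 1.44, SE 0.33, adjusted p = 0.00878).

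Msmo1 (44.1 and 39.4 against 22.0 and 20.01 CPM, log2 0.91) and Hmgcs1 (42.4 and 71.8 against 29.9 and 29.7 CPM, log2 0.90) were the other 2 genes that rose. Library 2 was the higher for Fdps, Idi1 and Hmgcs1. In that library the 6 B cell markers summed to 2559 CPM and the 4 plasma cell markers to 725 CPM, against 212 and 47.7 CPM in library 1 of the class. Without cells holding Jchain, hemoglobin or S100a8/S100a9 RNA 3 genes rose, and Hmgcs1 had log2 0.72 (adjusted p = 0.073). Without library 2 in the compared classes 0 passed.

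**Figure D4:**
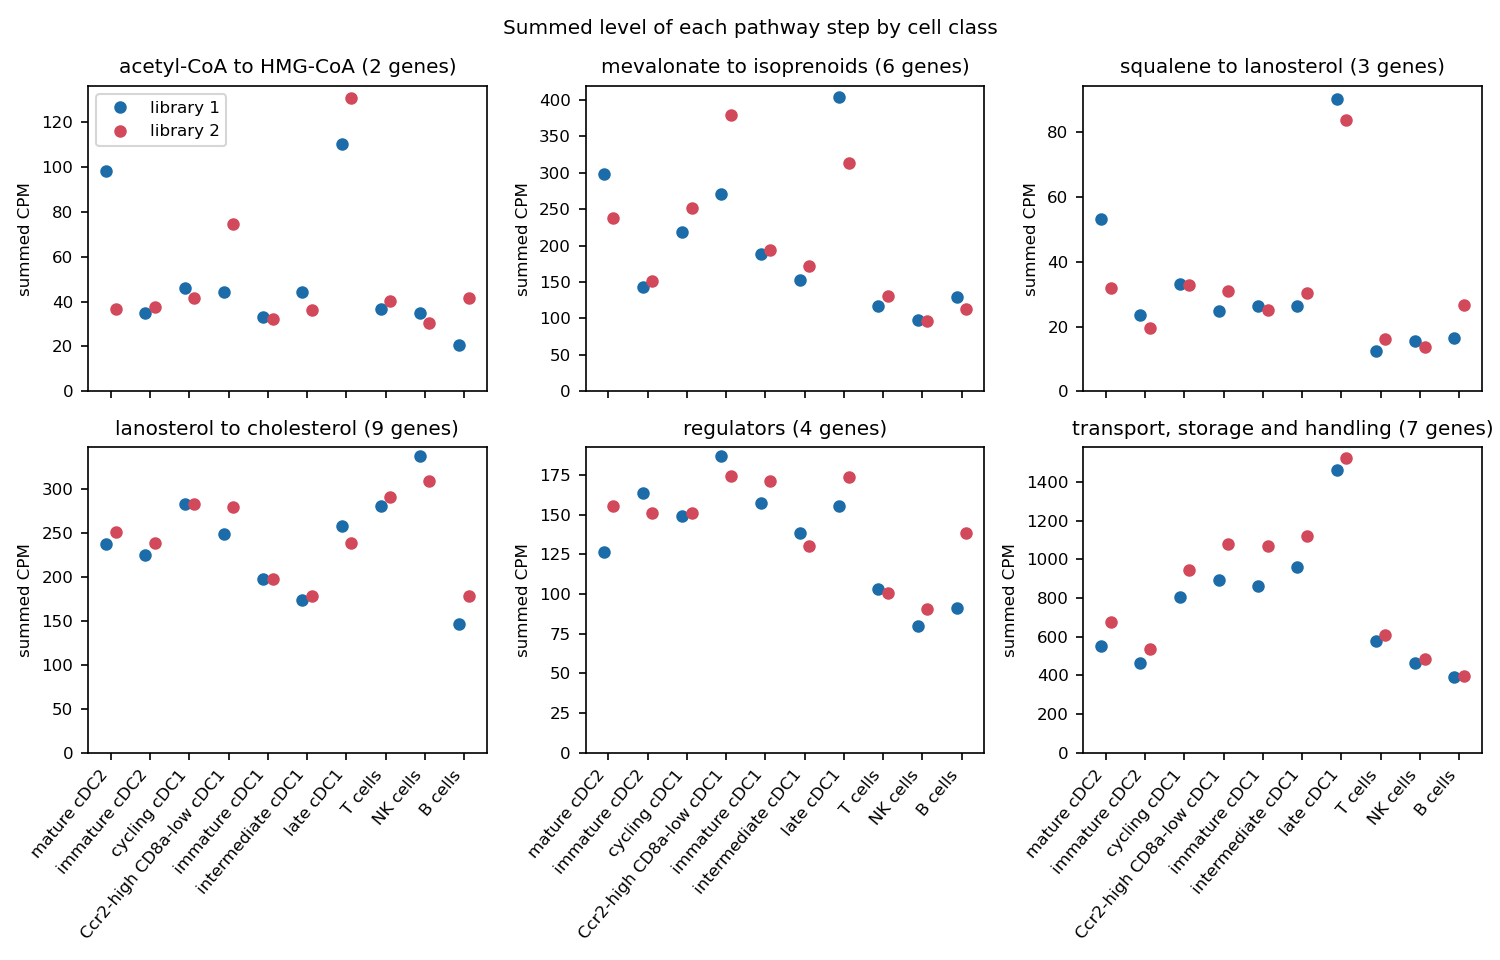
Summed CPM of the genes of each of 6 pathway steps in 10 cell classes, with a point for each library. Late cDC1 stand highest for the acetyl-CoA, squalene and transport steps, and NK cells for the steps from lanosterol to cholesterol. Single genes carry some sums. Npc2 alone gave 1355 and 1437 CPM of the transport sum of 1464 and 1522 CPM in late cDC1. In NK cells Lbr (156 and 123 CPM) and Ebp (99.7 and 115 CPM) made up most of the lanosterol sum of 338 and 310 CPM.

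Immature cDC2 and immature cDC1 were compared as the unmatured lineages. In immature cDC2 over immature cDC1 5 members rose and 8 fell, while 30.6% of tested genes were called higher and 25.6% lower. The enzyme sum was 427 and 448 CPM in immature cDC2, against 445 and 450 CPM in immature cDC1. The share of members called was near or under that of all genes. Single genes differed clearly, among them those of lysosomal export. Npc1 stood at 37.9 and 42.7 CPM in immature cDC2, against 10.2 and 9.13 CPM in immature cDC1 (log2 1.93, SE 0.13, adjusted p = 1.31e-12). Npc2 stood at 320 and 395 CPM in immature cDC2, against 751 and 967 CPM in immature cDC1 (log2 -1.40, SE 0.09, adjusted p = 3.02e-13). The RNAs of these partners in lysosomal export thus lay in opposite directions, without overlap between the 2 libraries of each class.

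Among enzymes and sensors, Lbr stood at 65.7 and 74.5 CPM in immature cDC2, against 26.1 and 27.9 CPM in immature cDC1 (log2 1.24, SE 0.10). Insig2 stood at 13.8 and 15.3 CPM in immature cDC2, against 33.6 and 34.0 CPM in immature cDC1 (log2 -1.35, SE 0.11). Fdps (log2 -1.20), Nsdhl (-1.15), Hsd17b7 (-0.87), Sqle (-0.60), Pmvk (-0.57) and Scap (-0.57) also fell, and Acat2 (0.88), Tmem97 (0.69) and Nceh1 (0.41) rose. Neutrophil markers summed to 1808 and 1677 CPM in immature cDC2, against 33.2 and 27.1 CPM in immature cDC1. Without cells holding such RNA the count was 15 (3 higher, 12 lower), and Nceh1 and Tmem97 did not pass. Without library 2 in the compared classes it was 7.

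Maturation of cDC2 moved part of the same enzymes. In mature over immature cDC2 5 members rose and 1 fell, while 9.27% of tested genes were called higher and 8.25% lower. The enzyme sum was 687 and 558 CPM in mature cDC2, against 427 and 448 CPM in immature cDC2. Idi1 stood at 77.7 and 27.5 CPM in mature cDC2, against 18.4 and 13.7 CPM in immature cDC2 (log2 1.85, SE 0.50, adjusted p = 0.00947). Hmgcs1 stood at 90.0 and 36.6 CPM in mature cDC2, against 30.7 and 30.01 CPM in immature cDC2 (log2 1.19, SE 0.36, adjusted p = 0.0224). Both genes were higher in both mature libraries, and library 1 lay far above library 2.

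Pmvk (115 and 105 against 55.4 and 57.8 CPM, log2 1.06), Cyp51 (77.7 and 50.4 against 37.0 and 37.0 CPM, log2 0.90) and Npc2 (458 and 540 against 320 and 395 CPM, log2 0.58) rose as well. Lbr stood at 16.4 and 13.7 CPM in mature cDC2, against 65.7 and 74.5 CPM in immature cDC2, and fell by 2.12 (SE 0.39, adjusted p = 0.00023). Neutrophil markers moved with maturity, at 53.2 and 64.1 CPM in mature cDC2, against 1808 and 1677 CPM in immature cDC2, as did the 5 monocyte markers, at 200.5 and 73.2 CPM against 713 and 602 CPM. The count was again 5 higher and 1 lower without cells holding S100a8/S100a9, hemoglobin or Jchain RNA, and the part of monocyte RNA was not tested. A UMI in mature cDC2 is worth over 4 CPM, and Fdft1 (log2 1.19), Sqle (1.22), Fdps (1.05) and Msmo1 (0.96) had adjusted p-values of 0.0977, 0.148, 0.0539 and 0.0909. Without library 1 in the compared classes Lbr alone passed. The median over all genes was -0.20 in this comparison and -0.05 with DESeq2, and the median of the 29 members was 0.58.

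The test of the difference between the lineages called 1 member. Srebf2 stood at 103 and 113 CPM in late cDC1 over 85.0 and 96.4 CPM in immature cDC1, and at 53.2 and 101 CPM in mature cDC2 over 111 and 106 CPM in immature cDC2. Its maturation effect in cDC1 exceeded that in cDC2 by log2 0.90 (SE 0.26, adjusted p = 0.0312), while 7.01% of tested genes were called higher and 1.74% lower in this contrast. For the other 28 tested members a difference between lineages was not detectable, with Idi1 at 1.11 (interval 0.20 to 2.02, adjusted p = 0.131) and Hmgcs1 at 1.01 (interval 0.32 to 1.71, adjusted p = 0.0607). The call of Srebf2 was lost with median-ratio size factors, with DESeq2, with doublets kept, with the narrower antibody gate, without cells holding RNA of other cells and without library 1 in the compared classes. Over all genes the median of this contrast was 0.18, beside 0.49 over the members.

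Set directly against mature cDC2, late cDC1 had 4 members higher and none lower, against 7.47% of tested genes higher and 4.57% lower, with a median of 0.63 beside 0.12 over all genes. Npc2 stood at 1355 and 1437 CPM in late cDC1, against 458 and 540 CPM in mature cDC2 (log2 1.76, SE 0.12, adjusted p = 2.3e-11). Hmgcs1 (log2 1.12, SE 0.31), Sqle (1.39, SE 0.46) and Srebf2 (0.77, SE 0.25) also rose, with adjusted p-values of 0.0148, 0.0448 and 0.0397. Npc2 passed in each alternative fit. The count was 2 with median-ratio size factors, DESeq2, doublets kept, the cells with other RNA left out or library 1 left out, and 1 with the narrower gate or library 2 left out.

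Immature cDC1 were set against lymphocytes, the mean of T, NK and B cells, as a view of the pathway outside the DC lineages. Of the 29 members 14 were higher and 6 lower, while 29.3% of tested genes were called higher and 32.2% lower. Soat1 stood at 66.1 and 65.3 CPM in immature cDC1, against 12.8 to 27.3 CPM over the 6 lymphocyte sums (log2 1.89, SE 0.13). Fdps (log2 1.34), Pmvk (1.54), Npc2 (1.26), Srebf2 (1.21) and Sqle (1.17) were higher by more than 1 on the log2 scale too. Lbr stood at 26.1 and 27.9 CPM in immature cDC1, against 110 and 120 CPM in T cells, 156 and 123 CPM in NK cells and 43.6 and 50.0 CPM in B cells (log2 -1.66, SE 0.11).

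Acat2 (log2 -1.78), Tmem97 (-1.29), Npc1 (-1.05), Nceh1 (-0.74) and Ggps1 (-0.51) were the other members lower in immature cDC1. Gramd1b, which rose in late cDC1, stood at 26.0 and 21.5 CPM in T cells and 37.9 and 26.7 CPM in NK cells but at 0 and 1.67 CPM in B cells. Its immature cDC1 level of 5.65 and 5.01 CPM did not pass against the lymphocyte mean (interval -1.84 to 0.72). Without cells holding Jchain, hemoglobin or S100a8/S100a9 RNA, Nceh1 and Tmem97 did not pass.

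Around the pathway, 36 related genes were listed by role. Of the 32 that were tested, 5 rose and 8 fell in late over immature cDC1, with a median log2 of -0.38. Over all tested genes 24.6% were higher and 21.7% lower, so these counts are not far from the background. Those that rose past 1 were the oxysterol-binding-protein relative Osbpl8 (log2 1.77, SE 0.19), Gramd1a, a relative of Gramd1b (1.75, SE 0.23), and Osbpl11 (1.06, SE 0.33). Lipa and Scarb1 were among those that fell. Lipa, the acid lipase that frees cholesterol from its esters in lysosomes, stood at 27.8 and 37.3 CPM in late cDC1, against 132 and 135 CPM in immature cDC1 (log2 -1.81, SE 0.17). Scarb1, the receptor for high-density lipoprotein, stood at 12.5 and 11.6 CPM in late cDC1, against 53.5 and 57.3 CPM in immature cDC1 (log2 -1.99, SE 0.26).

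By list, the counts that fell in late over immature cDC1 were near the share of all tested genes, of which 24.6% were higher and 21.7% lower. Of 9 tested genes for the use of isoprenoids 2 fell and 0 rose in late cDC1. Coq2, which starts the ring side of ubiquinone, was among those that fell (log2 -2.19, SE 0.34). Of 8 genes listed here under SREBP processing and INSIG turnover 1 rose and 2 fell. The 2 were Tmem147 at -2.23 (SE 0.24) and the ubiquitin ligase Rnf139 at -1.68 (SE 0.42), the latter on 4 and 5 late UMIs. Tmem147 was placed in this list by choice, and a part in either process is not shown here. Of 4 genes for acetyl-CoA supply 1 fell, the mitochondrial thiolase Acat1 at -1.03 (SE 0.24). Fntb (0 and 0 late UMIs), Pdss2 (0 and 2) and Osbpl2 (3 and 3) lay below -1 in late cDC1 without passing.

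In intermediate over immature cDC1 1 of the 32 rose and 8 fell (16.8% and 10.6% of all tested genes). Over intermediate cells (16.9% and 14.5% of all genes) 4 rose in late cDC1, among them Osbpl8 (log2 1.38), Osbpl3 (1.11) and Gramd1a (1.11), and 6 fell, among them Tmem147 (-1.81), Rnf139 (-1.71), Coq2 (-1.54), Lipa (-1.50) and Scarb1 (-1.33). In cycling cDC1 4 rose, with the farnesyltransferase subunit Fntb at 1.28, and 9 fell (22.0% and 25.3% of all genes). In Ccr2-high CD8a-low cDC1 0 rose and 1 fell (1.37% and 2.50% of all genes). In mature over immature cDC2, where 9.27% and 8.25% of all genes were called, 1 rose, Osbpl8 (log2 1.46, SE 0.26), and 3 fell, including Coq2 (-3.16, SE 0.76) and Lipa (-1.06, SE 0.28). Coq2 had 0 and 2 UMIs in mature cDC2 and Lipa 9 and 10, so the size of these falls is uncertain. The maturation effect on Gramd1a in cDC1 exceeded that in cDC2 by log2 1.38 (SE 0.43), the 1 related gene called in that contrast (7.01% and 1.74% of all genes).

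Immature cDC2 had 3 related genes higher and 17 lower than immature cDC1, where 30.6% of all genes were higher and 25.6% lower. The acetate-activating enzyme Acss2 and Osbpl3 (both log2 -1.59), the sterol hydroxylase Cyp27a1 (-1.07) and Scarb1 (-1.01) fell past -1. Late cDC1 over mature cDC2 had Erlin1, of the INSIG turnover list, higher (log2 1.34) and Tmem147 lower (-1.38), with 7.47% and 4.57% of all genes called. Immature cDC1 had 10 higher and 7 lower than lymphocytes (29.3% and 32.2% of all genes), with Scarb1 (log2 3.43), Cyp27a1 (3.32), Erlin1 (2.57), Lipa (2.43), Erlin2 (1.79) and Coq2 (1.09) above 1, and Gramd1a (-2.08) and Fntb (-1.97) below -1.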

How the data were processed

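The deposited matrix held raw UMI counts for genes and antibodies in every cell of both libraries, and per the file headers Cell Ranger 3.1.0 wrote it. STAR, Seurat 3.1.4 and mm10 are named in the submitters' processing notes, and no source used here says whether depth was equalised. Libraries were told apart by the barcode suffix (1 or 2), and no label ties a suffix to a replicate. The cell filter asked for 500 genes, 1000 RNA UMIs and a mitochondrial share under 10%. Scrublet (scanpy 1.11.5) marked 4.30% and 6.24% as doublets, which were removed. Library totals were 99617992 and 129565040 RNA UMIs, and 12166 and 15976 cells were kept.

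Cycling cells had at least 3 UMIs over 8 mitotic genes, and Ccr2-high CD8a-low cells at least 3 Ccr2 UMIs and CD8a antibody at or under its lower quartile. cDC2 had at least 5 CD172a and at most 2 XCR1 UMIs, at least 10 H2-Aa, at most 1 C1qa and no Cd79a or Siglech RNA UMIs, with the same Ccr7 and Fscn1 cuts as late cDC1 for maturity. Lymphocytes were gated on Cd3, Cd79 and Ms4a1, or Ncr1 and Klrb1c RNA. A total of 833 of the 13739 cDC1 fell in no class.

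For each class the UMIs of a library were added up, and these sums were compared in R 4.3.3 with edgeR 4.0.16 (quasi-likelihood, TMM, filterByExpr, two-sided, Benjamini-Hochberg at 0.05 over 10260 genes), which was checked on simulated counts. All 10 classes shared the fit, with 9 residual degrees of freedom, and 22 gate genes were left out. Each library gave a sum for all classes, so library entered as a block and the pairing lies in the design. Intervals of fold changes are 95%, and standard errors (SE) were derived from the F statistic. The alternatives covered normalization, DESeq2 1.42.0, filters, gates, depth, doublets and libraries left out.

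The members and lists were chosen with earlier results of these data known. Values are given for each member called in late over immature cDC1 or with the widest change of its step, and for related genes called with a change over 1 on the log2 scale. Other members' values, the Ccr7 bins, the promoter motifs, the fits without a library in the compared classes and without cells holding other RNA were chosen after the data were seen.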

Additional observations from a re-analysis of the deposited data

Results flagged for a closer look

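Srebf2 was marked because its maturation effect differed between the DC lineages in the test of that difference. It stood at 103 and 113 CPM in late cDC1 over 85.0 and 96.4 CPM in immature cDC1, and at 53.2 and 101 CPM in mature cDC2 over 111 and 106 CPM in immature cDC2. The difference of effects was log2 0.90 (SE 0.26, edgeR adjusted p = 0.0312). Mature cDC2 of library 1 were below those of library 2. Without library 1 in the compared classes the difference was 0.44 (adjusted p = 0.63).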

How the results depend on the processing

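No called member changed direction under any alternative run. Of 1514 comparisons of a called member with an alternative fit, 1288 were labelled the same, 181 lost their call and 45 moved. Of the 1288, 84 and 79 came from fits without library 1 or library 2 in any class, which gave no test. There a value was the same or moved by whether its fold change shifted past a limit set from its SE in the main fit. All 45 moved values came from those fits. The number of calls left the main count by over 1.5 times as follows. With the narrower antibody gate it was 13 for late over immature cDC1, 7 for late over intermediate cDC1, 1 for late cDC1 over mature cDC2 and 0 for the difference between lineages. Without the replicate block it was 1 for intermediate over immature cDC1; the block moved no other count by that much, with 22 in place of 21 for late over immature cDC1. Cells of 4000 to 12000 UMIs gave 7 for intermediate over immature cDC1. DESeq2 gave 10 for cycling over immature cDC1. Late cDC1 over mature cDC2 had 2 with median-ratio size factors, DESeq2, doublets kept and cells with other RNA left out. The difference between lineages had 0 with median-ratio size factors, doublets kept and cells with other RNA left out, 3 with no filter on low counts and 2 with cycling and Ccr2-high cells in the immature class. DESeq2 called 1 member there other than Srebf2, as lower. The cause was not tested.

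With a library left out of the compared classes (added after the data were seen; the lone sum is assumed to vary like the other classes) counts ranged from 12 to 17 for late over immature cDC1, 1 to 2 for intermediate over immature, 12 to 13 for late over intermediate, 5 to 8 for cycling, 0 to 3 for Ccr2-high CD8a-low cDC1 and 7 to 11 for immature cDC2 over immature cDC1. They ranged from 1 to 5 for mature over immature cDC2, 1 to 2 for late cDC1 over mature cDC2, 17 to 18 for immature cDC1 over lymphocytes and were 1 in each case for the difference between lineages (Srebf2 only without library 2). Thinned to 5000 UMIs, the immature shares were 6.33% and 6.37% for Idi1 and 11.6% and 11.3% for Hmgcs1. With DESeq2 the percentage of calls that were higher was 50.5 in place of 35.4 (Ccr2-high CD8a-low cDC1), 68.9 in place of 52.9 (mature cDC2), 46.4 in place of 62.0 (late cDC1 over mature cDC2) and 64.2 in place of 80.1 (difference between lineages). Fits with a class under 30 cells per library were not run: mature cDC2 with the stricter maturation gate or the depth range, NK and B cells in the depth range, and Ccr2-high CD8a-low cDC1 with the narrower antibody gate. The 58 and 54 mature cDC2 limit the precision of their comparisons.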
